A study of Mus musculus with 2 samples.

Results

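Basal cells of the mouse mammary gland whose transcriptomes held both Lgr5 and Tspan8 were examined here. The cells were chosen by their own counts of 8 transcripts. A basal cell was one in which Krt5, Krt14, Acta2 and Tagln together made up at least 0.5% of the unique molecular identifiers (UMIs, 1 per captured RNA molecule) and in which Krt5 plus Krt14 exceeded Krt8 plus Krt18. A double-positive cell was a basal cell with at least 1 Lgr5 and at least 2 Tspan8 UMIs. There were 642 such cells among 11732 basal cells and 12652 cells in the authors' table, 209 from the library labelled WT and 433 from the library labelled Fgd5-ko. The study profiled C57BL/6 mammary gland cells, with the marker label CD24highCD29+ and the genotypes WT and Fgd5-ko, by 10x Genomics 3' single-cell RNA sequencing, 1 library per genotype. The title of the Fgd5-ko sample has the word cko, and both titles have the word P4. The sources used here do not say what P4 means, which cells lost Fgd5, which part of the gene was deleted, or the age and number of the animals. With 1 library per genotype there is no replicate, so no p-value is given, and every interval is an exact 95% interval for counting error alone.

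The mammary duct has an inner luminal layer and an outer basal layer of contractile myoepithelial cells, which also contains cells able to regenerate the gland on transplantation. Lgr5 is a receptor for R-spondins, secreted proteins that strengthen Wnt signals, and its gene is itself a Wnt target in many epithelia. Tspan8 is a tetraspanin, a membrane protein with several membrane spans that organises adhesion and signalling proteins at the cell surface. Basal cells with Lgr5 and high Tspan8 have been described as quiescent stem-like cells of the ducts close to the nipple.

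Both genes lie on mouse chromosome 10. In the GENCODE annotation of GRCm38, matched by Ensembl gene ID, Lgr5 (ENSMUSG00000020140) spans chr10:115450311-115587780 on the minus strand and Tspan8 (ENSMUSG00000034127) spans chr10:115816832-115849893 on the plus strand. The submitters' processing notes name mm9, so these coordinates are those of the annotation and not of the authors' alignment. The genes point away from each other across 229051 bases, in which 0 protein-coding genes lie. Of the 4 nearest measured protein-coding genes on the far side of Lgr5, Rab21 was at 138 CPM (UMI counts scaled to a total of 1000000) in double-positive cells and 111 CPM in matched double-negative cells of the library labelled WT, and at 101 and 86.4 CPM in the library labelled Fgd5-ko, log2 ratios of 0.32 and 0.22. Zfc3h1 had log2 ratios of -0.00 and 0.14 and Thap2 of 0.09 and 0.16. Tmem19 was at 17.5 against 25.4 CPM and at 15.8 against 21.6 CPM, with log2 ratios of -0.54 (-1.44 to 0.34) and -0.45 (-0.81 to -0.10). These 4 flanking genes all stayed within 1.5-fold in both libraries. Each selecting gene overlaps a transcript of the opposite strand, A930009A15Rik for Lgr5 and AC153364.1 for Tspan8. The first was at 0 and 0 UMIs in the library labelled WT and at 8 and 4 UMIs in the library labelled Fgd5-ko, the second at 0 UMIs in all 4 groups. The sources used here do not give the strand setting of the counting.

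The window just upstream of the RefSeq start of Tspan8 is shown because Tspan8 is the gene that sets these cells apart from the other Lgr5-positive basal cells. It covers chr10:115817034-115817270 (GRCm38.p6, plus strand), 237 bases that end before the next annotated exon at 115817271 and lie within an intron of a longer Tspan8 transcript. Capitals mark a match to the octamer motif ATGCAAAT, which POU-family transcription factors bind.
Tspan8: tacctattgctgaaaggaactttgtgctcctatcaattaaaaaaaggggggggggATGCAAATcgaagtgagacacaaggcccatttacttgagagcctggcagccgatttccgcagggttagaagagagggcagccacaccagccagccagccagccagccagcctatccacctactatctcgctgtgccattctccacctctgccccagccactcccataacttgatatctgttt
The octamer match lies at position -195 from the start, and 1.60% of 32851 RefSeq promoter windows of 250 bases hold this motif on either strand. No match was found for the AP-1 motif TGANTCA (6.75% of windows), the cyclic AMP response element TGACGTCA (1.55%) or the TCF/LEF motif CTTTGNT (16.0%). These matches describe letters only.

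Fgd5, the gene named in the genotype, did not follow the labels. Double-positive cells held 2 Fgd5 UMIs in the library labelled WT (1.75 CPM, 0.212 to 6.32) and 16 in the library labelled Fgd5-ko (2.22 CPM, 1.27 to 3.60). Matched double-negative cells held 0 Fgd5 UMIs in the library labelled WT and 37 (5.13 CPM) in the library labelled Fgd5-ko. Within the latter, the log2 ratio of double-positive over matched cells was -1.21 (-2.16 to -0.33). Among basal cells with Lgr5 and no Tspan8, the library labelled WT had 4 Fgd5 UMIs (0.564 CPM) and the library labelled Fgd5-ko 134 (4.22 CPM). A 3' tag outside the deleted part would not show the deletion, and that part is not given. The 2 libraries also differed in depth: double-positive cells had a median of 4889 UMIs and 1695 genes in the library labelled WT and 14376 UMIs and 3560 genes in the library labelled Fgd5-ko. The libraries share 34 barcodes, 18 of them in the authors' table, and 0 barcodes are double-positive in both.

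The library labelled WT had 3.45% double-positive cells among its basal cells (209 of 6065, 3.00 to 3.94). The library labelled Fgd5-ko had 7.64% (433 of 5667, 6.96 to 8.36). The deeper library had the larger share. With every cell thinned to 3500 UMIs, leaving out 891 shallower basal cells of the library labelled WT and 0 of the other, the shares were 1.91% (99 of 5174, 1.56 to 2.32) and 1.39% (79 of 5667, 1.11 to 1.73). Over 10 thinning draws they ranged from 1.55% to 2.05% and from 1.39% to 1.68%, so the ranges overlapped. Among cells of 4000 to 12000 UMIs, which are the deeper part of one library and the shallow part of the other, the shares were 3.29% and 10.4%. No order between the libraries can be read from these values.

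Within each library, Tspan8 was found more often in basal cells that held Lgr5. To keep depth apart from this, basal cells of each library were split into 4 equal depth bins by total UMIs. The share of cells with at least 2 Tspan8 UMIs was 15%, 11.3%, 11.9% and 14.4% from the lowest to the highest bin among cells with Lgr5 in the library labelled WT, and 8.86%, 7.95%, 6.25% and 3.68% among cells without Lgr5. For the library labelled Fgd5-ko, the corresponding shares were 23.8%, 16.9%, 14.8% and 16.0% against 10.9%, 4.03%, 2.91% and 2.75%. The share was higher with Lgr5 in all 8 bins, and the intervals overlapped only in the second bin of the library labelled WT. The rule uses both genes, so this describes the cells and tests nothing.

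**Figure D1:**
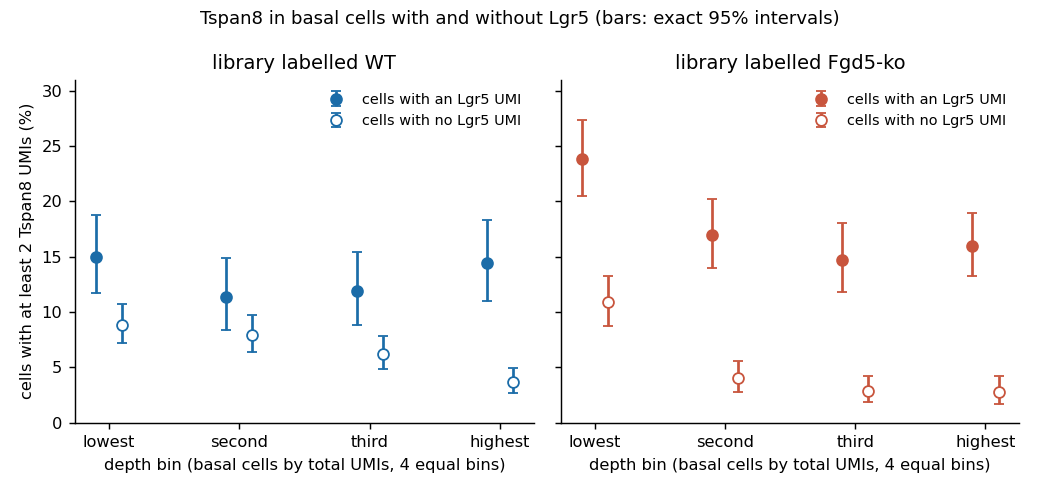
Share of basal cells with at least 2 Tspan8 UMIs (percent, vertical axis) among cells with (filled) and without (open) an Lgr5 UMI, by depth bin of total UMIs (horizontal axis), with the library labelled WT on the left and the library labelled Fgd5-ko on the right; bars are exact 95% intervals. Filled points lie between 11.3% and 23.8% and open points between 2.75% and 10.9%.

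Both transcripts were scarcer in fibroblast and endothelial marker-rich barcodes than in basal cells. Lgr5 was at 67.2 and 52.0 CPM over all basal cells of the libraries labelled WT and Fgd5-ko, at 5.74 and 8.75 CPM in fibroblast marker-rich barcodes outside the authors' table and at 0.947 and 0.754 CPM in endothelial marker-rich ones. Tspan8 was at 74.0 and 38.3 CPM in basal cells, at 2.96 and 0.973 CPM in the fibroblast marker-rich barcodes and at 10.2 and 3.02 CPM in the endothelial marker-rich ones. These barcodes had median depths of 6380 and 12490 UMIs (fibroblast) and 3052.5 and 7094 UMIs (endothelial). An Lgr5 UMI was present in 26.2% and 42.5% of basal cells, in 1.89% and 4.44% of fibroblast marker-rich barcodes and in 0.256% and 0.656% of endothelial marker-rich ones. At least 2 Tspan8 UMIs were present in 8.36% and 10.6% of basal cells and in 0.223% and 0% of the fibroblast marker-rich barcodes. Neither fibroblast nor endothelial marker-rich barcodes passed both thresholds, 0 of 898 and 0 of 1172 in the library labelled WT, which allows shares of up to 0.334% and 0.256%, and 0 of 495 and 0 of 305 in the library labelled Fgd5-ko, which allows up to 0.606% and 0.984%. Tspan8 was also present in cells of the table whose luminal keratins exceeded the basal ones, at 81.8 CPM in 85 cells and 147 CPM in 7 cells, where Lgr5 was at 4.09 and 0 CPM. At least 2 Tspan8 UMIs were present in 14.1% and 57.1% of these cells, larger shares than in basal cells. Their median depths were 9404 and 23191 UMIs, and 1 of 85 and 0 of 7 passed both thresholds.

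Levels of the selecting genes are given as a description. Double-positive cells held up to 6 Lgr5 and 15 Tspan8 UMIs in the library labelled WT and up to 25 and 30 in the library labelled Fgd5-ko, with medians of 1 and 3, and of 2 and 5. Just inside the rule, the 49 and 34 cells with exactly 1 Lgr5 and 2 Tspan8 UMIs had summed Tspan8 levels of 379 and 131 CPM. Just outside it, the 105 and 203 basal cells with Lgr5 and a single Tspan8 UMI had 173 and 55.5 CPM. Krt5 and Krt14, the basal keratins, were at 1262 and 3028 CPM in double-positive cells and at 895 and 2667 CPM in matched double-negative cells of the library labelled WT, and at 827 and 2868 against 583 and 2110 CPM in the library labelled Fgd5-ko. Acta2, smooth muscle actin, was at 6596 against 11098 CPM and at 5391 against 7403 CPM, and Tagln, the actin-binding protein transgelin, at 5232 against 7705 CPM and at 2830 against 3025 CPM. Of the luminal keratins, Krt8 was at 292 against 295 CPM and at 253 against 204 CPM. Krt18 was at 276 against 246 CPM in the library labelled WT and at 109 against 51.3 CPM in the library labelled Fgd5-ko, a log2 ratio of 1.08 (0.90 to 1.26) in the latter. All 9 basal markers, including the 5 outside the rule (Myh11, Mylk, Cnn1, Oxtr and Trp63), were detected in double-positive cells of both libraries. Their summed level was lower than in matched cells (17727 against 24504 CPM and 13787 against 15169 CPM). This sum includes Krt5, Krt14, Acta2 and Tagln, which the rule uses, so it is a description only. Krt5 and Krt14 went the other way. Of the markers outside the rule, Myh11, Mylk, Cnn1 and Trp63 were lower in both libraries, and Oxtr was lower in neither.

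For the comparison of all other genes, each double-positive cell was paired with the basal cell without either transcript that was nearest in total UMIs in the same library. In what follows, a level against another is that of double-positive against matched double-negative cells, a log2 ratio is the first over the second, and the library labelled WT comes first where 2 values are joined. The summed depths were 1143118 and 1143057 UMIs in the library labelled WT and 7210372 and 7206720 UMIs in the library labelled Fgd5-ko. Median mitochondrial shares were 5.04% against 4.78% and 4.60% against 4.69%. Genes with a mean level of 50 CPM or more in each library were compared, without the 8 genes of the selection rule. Of these 2114 genes, 35 were at least 1.5-fold higher in double-positive cells of both libraries (1.66%) and 23 at least 1.5-fold lower in both (1.09%). A single gene, Ccl2, passed this fold in opposite directions (0.0473%). Taken by library, 76 genes were higher and 59 lower in the library labelled WT (3.6% and 2.79%) and 76 higher and 40 lower in the library labelled Fgd5-ko (3.6% and 1.89%). The 35 shared higher genes were 46.1% of each library's higher genes, and the 23 shared lower genes were 39.0% and 57.5% of the lower ones. Across these 2114 genes the log2 ratios of both libraries had a Pearson correlation of 0.59, where the points are genes and not independent replicates.

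**Figure D2:**
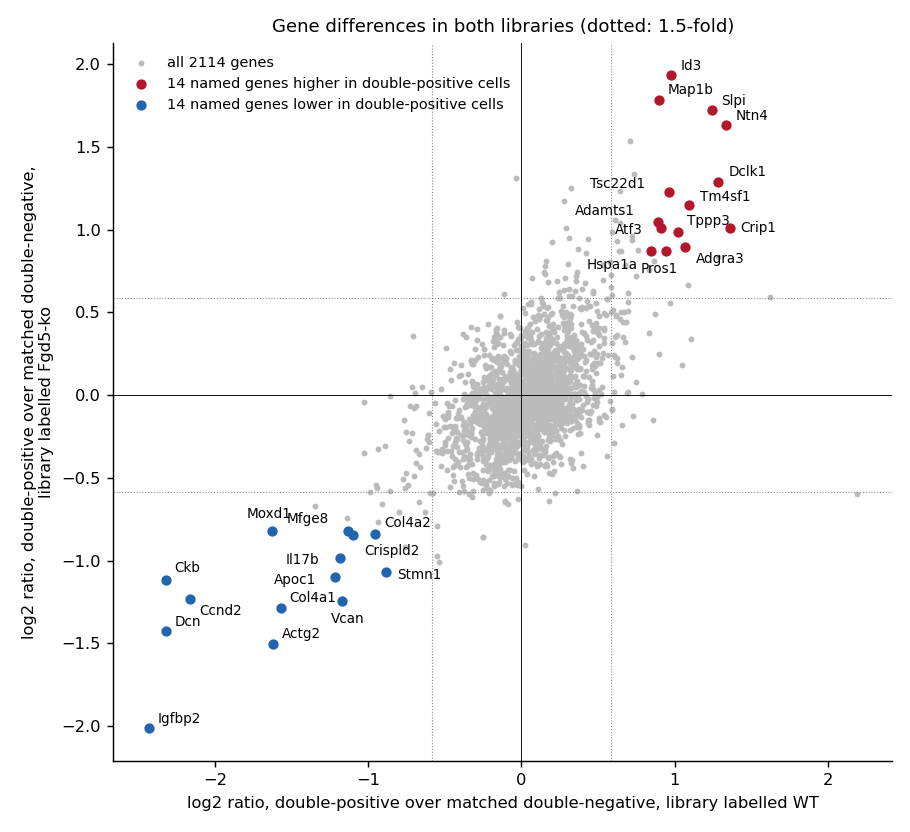
Log2 ratio of double-positive over matched double-negative basal cells for 2114 genes, in the library labelled WT (horizontal axis) and in the library labelled Fgd5-ko (vertical axis); dotted lines mark 1.5-fold, red and blue points the 14 named genes of each direction. Igfbp2 lies farthest out at the lower left (-2.43 and -2.01), Slpi and Ntn4 lie at the upper right, and the grey point at the lower right is Ccl2 (2.19 and -0.60).

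Slpi, a secreted inhibitor of serine proteases with antimicrobial activity, was the most abundant of the 14 named higher genes in double-positive cells of the library labelled WT; in the other library Atf3 was above it, at 3706 CPM. The level of Slpi was 4961 CPM in double-positive cells and 2095 CPM in matched double-negative cells of the library labelled WT, and 3219 and 976 CPM in the library labelled Fgd5-ko, log2 ratios of 1.24 (1.17 to 1.31) and 1.72 (1.68 to 1.76). At 3500 UMIs per cell the median cell held 12 Slpi UMIs (10th to 90th percentile 1 to 42.6) against 2 (0 to 20), and 7 (1 to 36.8) against 0 (0 to 14). The medians differed, and not only the cells with the highest counts. Tm4sf1, a membrane protein of the tetraspanin-like L6 family, was at 1352 against 632 CPM and at 754 against 340 CPM (1.10 and 1.15).

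Several secreted or matrix-linked proteins were among the higher genes. Ntn4, a netrin of the basement membrane, was at 79.6 against 31.5 CPM and at 78.2 against 25.3 CPM (log2 ratios 1.34 and 1.63). Adamts1, a metalloprotease of the ADAMTS family that cleaves proteoglycans, was at 333 against 179 CPM and at 617 against 299 CPM (0.89 and 1.05). Pros1, protein S, an anticoagulant that is also a ligand of TAM receptors, was at 129 against 67.4 CPM and at 96.5 against 52.9 CPM (0.94 and 0.87). No interval of these log2 ratios included 0. The 3 genes were chosen by the same ratios, so their direction is a description only.

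The other named higher genes had varied roles. Dclk1, a microtubule-binding kinase, was at 93.6 against 38.5 CPM and at 84.9 against 34.7 CPM (1.28 and 1.29). Map1b, a microtubule-associated protein best known from neurons, was at 140 against 75.2 CPM and at 206 against 59.8 CPM (0.90 and 1.78), and Tppp3, a tubulin-binding protein, had ratios of 1.02 and 0.99. Id3, an inhibitor of basic helix-loop-helix factors that BMP signals induce in many cells, was at 858 against 436 CPM and at 530 against 139 CPM (0.98 and 1.93). Its ratio, like that of Map1b, was larger in the library labelled Fgd5-ko, with intervals that did not overlap (0.82 to 1.14 and 1.83 to 2.03 for Id3). The transcriptional regulators Tsc22d1 (0.97 and 1.23) and Atf3 (0.91 and 1.01), the LIM protein Crip1 (1.36 and 1.01), the adhesion G-protein-coupled receptor Adgra3 (1.07 and 0.90) and the heat-shock gene Hspa1a (0.85 and 0.87) completed the 14. Hspa1a is nearly identical to Hspa1b, so reads of the pair could have been split between them.

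The other 21 higher genes, given here by name after their values were seen, had log2 ratios from 0.59 to 1.62. They included Dkk3, a secreted protein of the Dickkopf family (1.28 and 0.83), Gas1, a membrane protein first found in growth-arrested fibroblasts (0.87 and 0.81), Vim, the intermediate filament vimentin (0.65 and 0.87), Mmp2, a gelatinase (1.09 and 0.67), Mme, the surface peptidase CD10 (0.59 and 0.98), Tnfrsf12a, the receptor of TWEAK (0.61 and 1.06), and Irx3, a homeobox factor (0.64 and 1.04). Pla2g7 was at 194 against 119 CPM and at 80.7 against 27.9 CPM.

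Igfbp2, which binds insulin-like growth factors, showed the widest difference among the lower genes. Its level was 64.7 CPM in double-positive cells and 349 CPM in matched cells of the library labelled WT, and 41.2 and 166 CPM in the library labelled Fgd5-ko, log2 ratios of -2.43 (-2.81 to -2.07) and -2.01 (-2.20 to -1.83). Actg2, the gamma actin of enteric smooth muscle, was at 141 against 434 CPM and at 123 against 348 CPM (-1.62 and -1.50). Il17b, a cytokine of the interleukin-17 family, was at 362 against 823 CPM and at 325 against 644 CPM (-1.18 and -0.99). All 3 were chosen as lower in both libraries, so this direction is a description only.

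Lower genes that encode matrix proteins or other secreted proteins are given next. Col4a1 and Col4a2, which encode the 2 main collagen IV chains, sit head to head on chromosome 8 and share 22 bases at their 5' ends in the annotation. Col4a1 was at 152 against 452 CPM and at 247 against 600.0 CPM (-1.57 and -1.28). Col4a2 was at 132 against 256 CPM and at 206 against 369 CPM (-0.96 and -0.84). Vcan, the proteoglycan versican, had ratios of -1.17 and -1.24, Crispld2, a secreted glycoprotein, of -1.10 and -0.84, and Mfge8, the milk fat globule protein that binds integrins, of -1.13 and -0.82. Dcn, the proteoglycan decorin, was at 37.6 against 188 CPM and at 106 against 285 CPM (-2.32 and -1.43). Dcn is also a fibroblast marker: the 8 fibroblast markers together were at 59.5 against 215 CPM and at 127 against 303 CPM, Dcn made up 215 of the 246 and 2054 of the 2185 UMIs in matched cells, and Col1a1, Col1a2 and Col3a1 were at 3, 6 and 12 UMIs against 5, 4 and 11 in the library labelled WT and at 15, 76 and 15 UMIs against 13, 41 and 28 in the library labelled Fgd5-ko.

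Genes linked to growth and metabolism made up the rest of the named lower genes. Ccnd2, cyclin D2, was at 18.4 against 82.2 CPM and at 39.9 against 93.8 CPM (-2.16 and -1.23). Stmn1, stathmin, which destabilises microtubules and is abundant in dividing cells, had ratios of -0.88 and -1.07. Ckb, brain creatine kinase (-2.32 and -1.11), Apoc1, an apolipoprotein (-1.21 and -1.10), and Moxd1, a monooxygenase-like protein (-1.63 and -0.82), were also lower. The other 9, named after their values were seen, were Fbxo32, Fbln2, Spon2, Gclm, Sostdc1, S100a14, Msrb1, Acot1 and Cnp, with ratios from -0.59 to -1.35. Sostdc1, a secreted antagonist of BMP and Wnt ligands, was at 46.4 against 118 CPM and at 86.8 against 138 CPM.

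The lists of pathway genes were read at a lower minimum of 20 CPM, where 86 of 4577 genes (1.88%) were at least 1.5-fold higher and 46 (1.01%) lower in both libraries, and where the median log2 ratio of all genes was 0.04 and 0.00. Apart from Lgr5 itself, 2 genes of the Lgr and R-spondin list reached this level. Lgr4, a related R-spondin receptor, was at 119 against 84.9 CPM and at 105 against 71.3 CPM (0.49 and 0.56), and Lgr6, the third receptor, at 54.2 against 50.7 CPM and at 64.6 against 57.2 CPM (0.10 and 0.18). Neither passed 1.5-fold.

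Of 15 measured Wnt genes, 2 were higher and 1 lower in both libraries. Sfrp1, a secreted antagonist that binds Wnt proteins, was at 221 against 36.7 CPM (253 and 42 UMIs) and at 77.2 against 14.7 CPM (557 and 106 UMIs). These log2 ratios of 2.59 (2.12 to 3.1) and 2.39 (2.09 to 2.71) were the largest of the 86 higher genes by the smaller of each gene's 2 ratios. Dkk3 was the other higher gene. Wnt6, a Wnt ligand, was at 8.75 against 34.1 CPM (10 and 39 UMIs) and at 21.1 against 77.4 CPM (-1.96 and -1.88). The median of the list was 0.04 and 0.07, near that of all genes, and Ctnnb1, the gene of beta-catenin, had ratios of 0.04 and -0.11.

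Quiescence genes did not move one way. Of 10 measured members, Gas1 was higher in both libraries, Cdkn1c, the cell-cycle inhibitor p57, was lower (12.2 against 42.9 CPM from 14 and 49 UMIs, and 15.7 against 30.5 CPM), and 8 were neither. Cdkn1b, the inhibitor p27, had ratios of -0.42 and -0.31, and Cdkn1a, the inhibitor p21, 0.20 and 0.93. Among 11 genes tied to basal stem cells 0 passed in both libraries; Tbx3 had 0.58 and 0.63, Sox9 0.84 and 0.38 and Id4 -0.50 and -0.28.

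Of 14 measured contractile genes, Actg2 alone was lower by 1.5-fold in both libraries and 13 were neither. Their median log2 ratio was -0.42 and -0.16. Myl9, the regulatory light chain of smooth muscle myosin, was at 979 against 1428 CPM and at 764 against 969 CPM (-0.54 and -0.34), while Smtn, smoothelin, went the other way (0.58 and 0.65). Of these 14 genes, 12 and 11 were below 0. Among 17 basement membrane genes, Col4a1, Col4a2 and Lama1, the laminin alpha 1 chain (14.9 against 42.9 CPM and 44.8 against 98.5 CPM), were lower in both libraries and 14 were neither. Of 15 measured genes of basal identity, Vim was the only one past the fold in both libraries.

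Id1 and Id3 were higher, and immediate early genes were mostly above 0. Of 11 BMP, TGF-beta and ID genes, Id1, another helix-loop-helix inhibitor, was at 93.6 against 41.1 CPM and at 59.8 against 15 CPM (1.19 and 2.0) and stood with Id3, while Id2 (-0.03 and 0.32) and Id4 did not share this difference. All 21 immediate early genes were measured, with medians of 0.27 and 0.49, and 19 and 21 of them were above 0, against 2457 and 2289 of the 4577 genes. Atf3 and Fosl1 passed the fold in both libraries. Fosl1 in the library labelled WT had 0.64 on 53 and 34 UMIs, with an interval that included 0 (-0.01 to 1.31). Fos had 0.39 and 0.64 and Nr4a1 0.56 and 0.58. The median of 9 NF-kB and inflammation genes was 0.45 and 0.44; Vcam1, an adhesion molecule, was at 97.1 against 31.5 CPM and at 119 against 78.5 CPM, and Nfkbiz, an NF-kB regulator, had 0.58 and 0.80. Immediate early genes are also induced by tissue dissociation; its part was not tested.

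The remaining lists held few genes past the fold. Of 10 hormone receptor genes Rara (0.86 and 0.92) and Thra (0.66 and 0.59), the receptors of retinoic acid and thyroid hormone, were higher on 21 to 282 UMIs. The interval of Thra in the library labelled WT included 0 (-0.02 to 1.36). In the growth factor list Igfbp2 and Igfbp4 (30.6 against 81.4 CPM and 20.7 against 50.2 CPM) were lower and Vegfa (0.79 and 0.61) higher. Of 14 heat-shock genes Hspa1a and Bag3 (0.70 and 0.61) were higher. Among 11 genes of the FGD family and CDC42 signalling, Cdc42ep4, a CDC42 effector, was at 28.9 against 14.9 CPM and at 38.8 against 23.7 CPM. Tetraspanins and their integrin partners, 13 genes without Tspan8, held 0 genes past the fold in both libraries, with Cd151 at 0.42 and 0.36 and Itga6 at -0.60 and -0.28. Vim and Mmp2 were the 2 higher genes of the 7 measured mesenchymal ones, Vegfa the 1 higher gene of 13 for glycolysis and hypoxia, and Mfge8 the 1 lower gene of 3 milk and alveolar ones. Among the 3 luminal identity, 5 Notch, 11 Hippo YAP target, 10 junction, 8 antigen presentation, 5 interferon response and 2 cholesterol genes, 0 passed in both libraries.

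**Figure D3:**
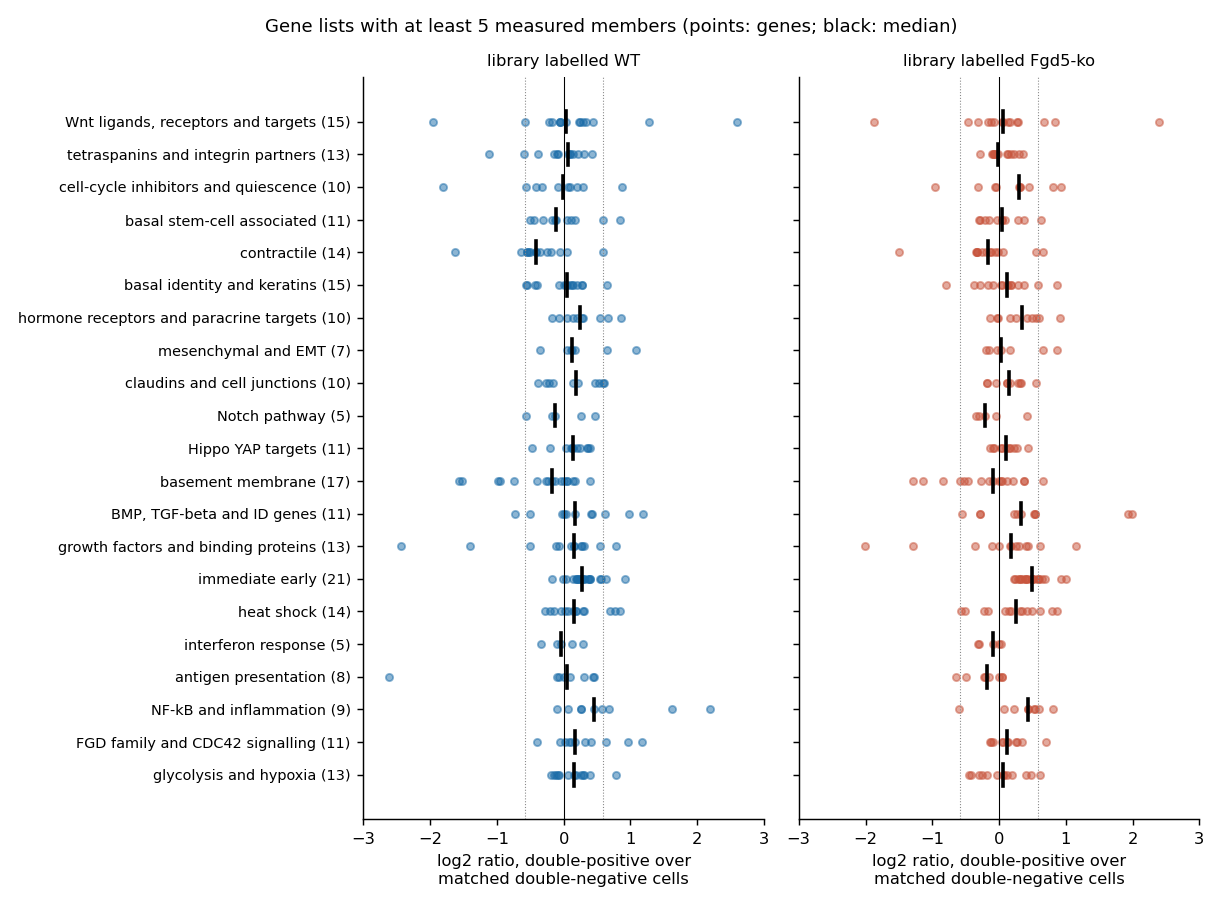
Log2 ratio of double-positive over matched double-negative cells (horizontal axis) for the members of each gene list with at least 5 measured genes (rows, number of genes in brackets), in the library labelled WT (left) and the library labelled Fgd5-ko (right); points are genes, black bars medians and dotted lines 1.5-fold. The immediate early and NF-kB lists have medians of 0.27 to 0.49, and the contractile list -0.42 and -0.16.

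Transcripts of dividing cells were less frequent in double-positive cells of the library labelled Fgd5-ko. Cells with a UMI of Mki67 or Top2a, both made mainly in dividing cells, were counted after thinning to 3500 UMIs. The library labelled Fgd5-ko had 25 of 433 such double-positive cells (5.77%, 3.77 to 8.41) and 68 of 433 such matched cells (15.7%, 12.4 to 19.5). The library labelled WT had 1 of 175 (0.571%, 0.0145 to 3.14) and 4 of 175 (2.29%, 0.626 to 5.75), and these intervals overlap. Before thinning the shares were 13.4% and 25.9%, and 1.44% and 2.39%. As a background, thinned fibroblast and endothelial marker-rich barcodes had shares of 1.68% and 3.03% in the library labelled Fgd5-ko and of 0.899% and 1.26% in the library labelled WT. For the library labelled WT, the intervals of double-positive cells and of matched cells both include 0.899% and 1.26%. These values do not set its double-positive cells apart. The 20 G2/M genes, none of which reached 20 CPM in both libraries, had a summed level of 18.4 against 73.5 CPM in the library labelled WT (log2 ratio -2.0, -2.76 to -1.30, on 21 and 84 UMIs) and of 437 against 1024 CPM in the library labelled Fgd5-ko (-1.23, -1.29 to -1.17). In the library labelled WT, 3 of 209 double-positive and 5 of 209 matched cells held Mki67 or Top2a before thinning. A further draw of matched cells had 12 of 209. How many cells carried the G2/M UMIs was not examined, and the interval does not cover the draw of cells. The S-phase list was at 314 against 311 CPM (0.02) and at 412 against 603 CPM (-0.55). Of its 4 measured genes, 0 passed 1.5-fold in both libraries.

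**Figure D4:**
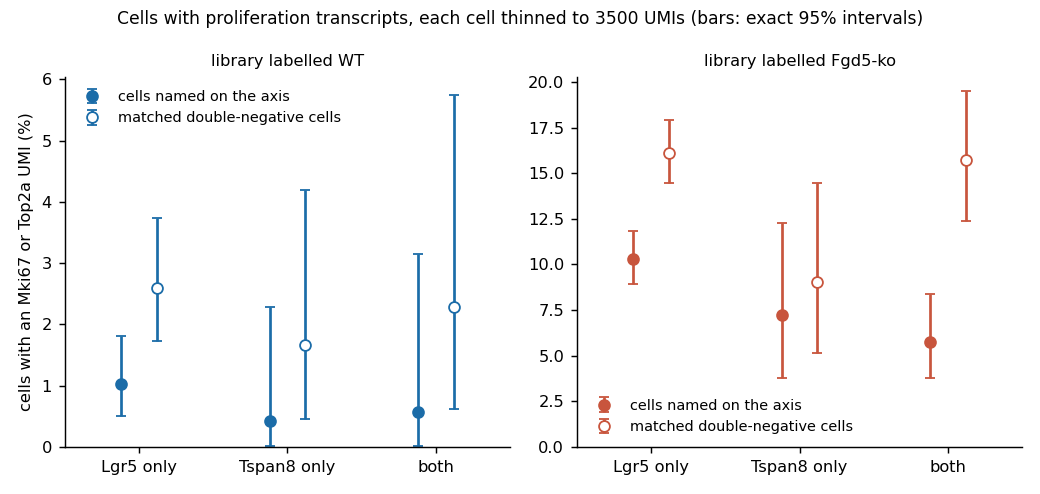
Share of cells with an Mki67 or Top2a UMI after thinning to 3500 UMIs (percent, vertical axis; the scales of the panels differ) in basal cells with Lgr5 only, Tspan8 only or both (filled), each beside its own matched double-negative cells (open), for the library labelled WT (left) and the library labelled Fgd5-ko (right); bars are exact 95% intervals. In the right panel the filled point of double-positive cells is at 5.77% and the open one at 15.7%.

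Cells with only one of the transcripts were set against their own matched double-negative cells to see how far each goes with the other genes. These comparisons draw on the same pool of double-negative cells as the main one, with 23 and 50 controls in common for the Tspan8-only cells and 96 and 330 for the Lgr5-only cells, and the 28 genes were chosen in double-positive cells, so the values are set side by side only. Basal cells with at least 2 Tspan8 UMIs and no Lgr5 (298 and 166 cells) had 17 genes higher (0.824%) and 15 lower (0.727%) of 2062, and cells with Lgr5 and no Tspan8 (1275 and 1774 cells) had 4 higher (0.187%) and 7 lower (0.328%) of 2134. The median log2 ratio of the 14 higher genes was 1.0 and 1.1 in double-positive cells, 0.87 and 0.74 in Tspan8-only cells and 0.54 and 0.66 in Lgr5-only cells. For the 14 lower genes it was -1.39 and -1.10, -0.95 and -0.96, and -0.78 and -0.50.

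Single genes differed in this respect. Actg2 was at -1.72 and -1.73 in Tspan8-only cells, close to its -1.62 and -1.50 in double-positive cells, and at -0.41 and -0.26 in Lgr5-only cells. Igfbp2 had -1.99 and -1.71 against -0.93 and -0.77, and Id3 0.88 and 1.82 against 0.10 and 0.72. Sfrp1 had 2.19 and 2.16 in Tspan8-only cells and 1.20 and 0.76 in Lgr5-only cells. For these 4 genes the Tspan8-only value was the one nearer to that of double-positive cells in both libraries. Atf3 (0.45 and 0.42 against 0.47 and 0.69) and Map1b (0.22 and 0.88 against 0.63 and 1.20) had higher values with Lgr5 only. So did Tppp3 (0.40 and 0.44 against 0.52 and 0.93). The intervals overlapped for Map1b in both libraries and for Atf3 and Tppp3 in the library labelled WT. For Atf3 and Tppp3 in the library labelled Fgd5-ko they lay apart. Vcan turned its order between the libraries: with Tspan8 only it was at -0.00 and -0.90, and with Lgr5 only at -1.38 and -0.75. An Lgr5 UMI is sampled sparsely, so some cells without one carry the transcript; this share was not measured. The share of cells with Mki67 or Top2a in the library labelled Fgd5-ko was 7.23% (3.79 to 12.3) in Tspan8-only cells against 9.04% (5.15 to 14.5) in their controls, and 10.3% (8.94 to 11.8) in Lgr5-only cells against 16.1% (14.4 to 17.9).

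**Figure D5:**
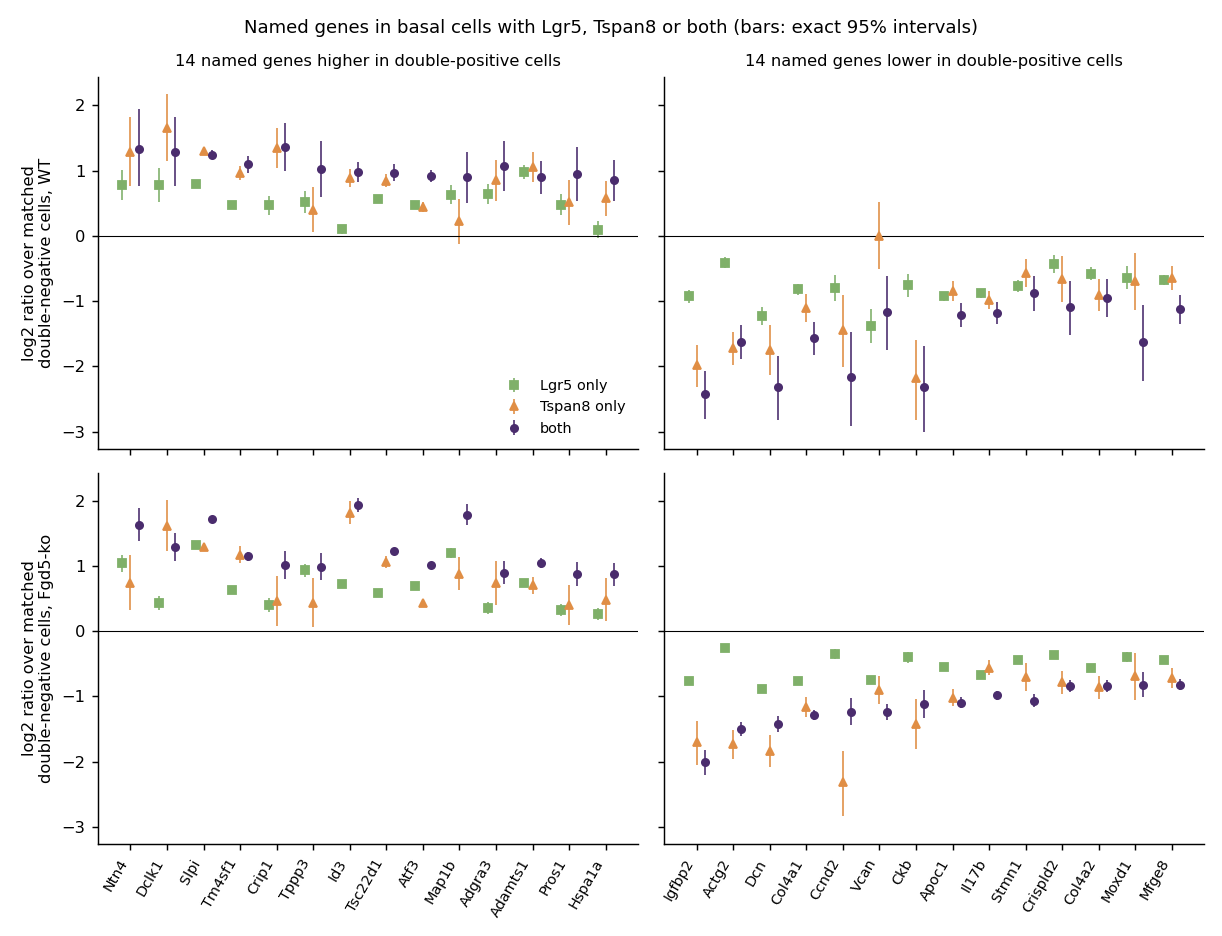
Log2 ratio over matched double-negative cells (vertical axis) of the 14 higher (left) and 14 lower (right) named genes in basal cells with Lgr5 only (squares), Tspan8 only (triangles) and both (circles), for the library labelled WT (top) and the library labelled Fgd5-ko (bottom); bars are exact 95% intervals. For Actg2 and Igfbp2 the triangles lie near the circles and the squares nearer to 0.

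Double-positive cells were also split by their Tspan8 count. Tspan8 is in the rule and the genes were chosen in the same cells, so the values are a description. In the library labelled WT, the median log2 ratio of the 14 higher genes over matched cells was 0.72 in the 69 cells with 2 Tspan8 UMIs, 1.20 in the 67 cells with 3 to 4 and 1.48 in the 73 cells with at least 5, and that of the 14 lower genes was -1.12, -1.65 and -1.73. Of the library labelled Fgd5-ko, the 98, 116 and 219 cells of these tiers had 1.05, 1.21 and 1.14 for the higher genes and -0.99, -1.02 and -1.24 for the lower ones. Igfbp2 was at 113, 45.8 and 35.9 CPM over the tiers of the library labelled WT and at 41.6, 46.9 and 37.8 CPM over those of the other library. Actg2 was at 176, 137 and 110 CPM, and at 120, 154 and 107 CPM. The difference between the libraries in these values was not tested.

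The libraries differed from each other in double-positive and double-negative cells alike. Between the libraries labelled Fgd5-ko and WT, 307 of 2114 genes were at least 1.5-fold higher (14.5%) and 212 lower (10%) in double-positive cells, and 327 higher (15.5%) and 164 lower (7.76%) in matched double-negative cells. Slpi was lower in the library labelled Fgd5-ko in both (-0.62 and -1.10), Crip1 likewise (-1.44 and -1.09), and Atf3 was higher (0.68 and 0.58). Vcan (1.65 and 1.73) and Crispld2 (1.71 and 1.45) were higher by similar amounts in both kinds of cell. Map1b was at 0.56 in double-positive and -0.33 in double-negative cells, and Ckb at 0.80 and -0.41. Genotype, library, depth and preparation cannot be told apart here.

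Among markers of other cell types, the 7 luminal progenitor and alveolar markers were at 147 against 29.7 CPM in the library labelled WT and at 30.7 against 20.8 CPM in the library labelled Fgd5-ko. The milk protein genes Csn3 (38 against 2 UMIs) and Wfdc18 (125 against 29 UMIs) carried this sum in the library labelled WT, where 1 cell held 26 of the 38 Csn3 UMIs and 3 cells held 100 of the 125 Wfdc18 UMIs; Kit, Elf5, Aldh1a3 and Ltf were at 1 to 2 UMIs and Csn2 at 0. The hormone-sensing luminal list was at 32.4 against 20.1 CPM and at 20.4 against 15.7 CPM. Endothelial markers were at 4.37 against 3.5 CPM and at 4.85 against 7.08 CPM, and myeloid markers at 12.2 against 40.2 CPM and at 3.74 against 3.05 CPM, with Lyz2 and C1qa at 0 in double-positive cells of the library labelled WT. The 5 pericyte markers were at 7.87 against 6.12 CPM and at 13.2 against 7.35 CPM, log2 ratios of 0.36 (-1.23 to 2.02) and 0.84 (0.34 to 1.35). The 5 Schwann cell markers were at 56.0 against 63.9 CPM and at 81.5 against 75.5 CPM, and the 9 epidermal and hair follicle markers at 67.4 against 48.1 CPM and at 46.3 against 46.5 CPM. Without the cells that held a luminal progenitor marker UMI, 38 genes were higher and 23 lower in both libraries. Where basal keratins were at least 5 times luminal keratins, 33 were higher and 21 lower.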

How the data were processed

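RNA of single mammary cells was measured with the 10x Genomics 3' kit (V3 chemistry), per the labels' protocols, 1 library per genotype. The authors deposited UMI counts per gene and barcode, made with a Cell Ranger program of version 3.1.0 per the file headers, and a t-SNE table, used here only for its list of cells. Cell Ranger, Seurat 3.0 and mm9 are named in the submitters' processing notes, without their roles. The filter behind the table and the strand setting were not given in the sources used here. Amplification copies are collapsed by UMI, and a 3' tag says nothing of the exons further upstream. Basal cells had 33976275 UMIs in the library labelled WT and 97867199 in the library labelled Fgd5-ko.

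Counts of double-positive cells were summed per library, scaled to a total of 1000000 UMIs (CPM) and set against the sums of double-negative basal cells, matched 1 to 1 without replacement on total UMIs. Called genes were at least 1.5-fold apart in the same direction in both libraries at a mean of at least 50 CPM in each (20 CPM for members of the 27 gene lists, of whose 508 entries 2 were not matched). Ratios with a count of 0 used a floor of 3 counts over the group. Poisson (CPM), Clopper-Pearson (shares) and exact conditional binomial (ratios) intervals are at 95%. Named genes were Fgd5, Lgr5, Tspan8, the 14 highest and 14 lowest called genes by the smaller of both log2 ratios, and 2 to 4 members per list by the same measure (all for the Lgr and R-spondin list); rule genes, mitochondrial and ribosomal protein genes, haemoglobins and sex-linked marker genes were left out. Members and lists were chosen with earlier results of these data known. Fibroblast marker-rich barcodes were those outside the table with at least 1000 UMIs, at most 15% mitochondrial UMIs and at least 1% of UMIs in Col1a1, Col1a2, Col3a1 and Dcn; endothelial ones had at least 0.3% in 6 markers. No doublet caller was run; the keratin rule and 2 alternatives on luminal transcripts limit basal-luminal doublets. Tested on simulated data for the double-positive contrast with 2054 genes, the procedure recovered 98.9% of 177 genes changed 2-fold and called 0 others. Recovery of changes between 1.5-fold and 2-fold was not tested, and most called genes lie there. In the real data, 5 higher and 8 lower genes passed 2-fold in both libraries. The simulation does not stand in for replicate libraries. Python 3.11.15, NumPy 2.4.6, SciPy 1.17.1 and pandas 2.3.3 were used, and matplotlib 3.10.9 for figures. Alternatives varied the UMI thresholds, the basal cutoff, the matching, the depth range, the centring, the minimum level and the fold.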

Additional observations from a re-analysis of the deposited data

Results flagged for a closer look

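Ccl2, a chemokine that attracts monocytes, passed 1.5-fold in opposite directions in the 2 libraries. Its log2 ratio of double-positive over matched double-negative cells was 2.19 (1.61 to 2.81), on 137 and 30 UMIs, in the library labelled WT. For the library labelled Fgd5-ko it was -0.60 (-0.77 to -0.42), on 463 and 699 UMIs. Few cells carried these counts: 31 of 209 double-positive and 16 of 209 matched cells of the library labelled WT held a Ccl2 UMI, and 3 double-positive cells held 58 of the 137 UMIs. The matched cells above were at 26.2 CPM in the library labelled WT and at 97.0 CPM in the library labelled Fgd5-ko. Double-negative cells matched instead to Lgr5-only cells were at 55.2 and 94.1 CPM. Those matched to Tspan8-only cells were at 85.3 and 74.3 CPM. The size of the ratio in the library labelled WT therefore depends on which matched cells were drawn, which its counting interval does not cover. The difference between the libraries was not tested.

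Double-positive basal barcodes were also present outside the authors' table, which the comparisons above do not use. There were 14 in the library labelled WT, of 425 basal barcodes (3.29%, 1.81 to 5.47), and 36 in the library labelled Fgd5-ko, of 524 (6.87%, 4.86 to 9.38). They had median depths of 16190 and 39248 UMIs, above those of the listed cells. The deepest basal cells of the table had 15261 and 39649 UMIs. Whether these barcodes hold more than 1 cell was not tested. Against matched double-negative barcodes from outside the table, 14 and 13 of the 14 named higher genes were above 0, with medians of 1.25 and 0.76. Of the 14 named lower genes, 12 and 14 were below 0, with medians of -0.86 and -0.66. No share over all genes is given beside these counts, so they are a description only.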

How the results depend on the processing

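The 28 named genes kept their direction in both libraries under all 10 alternatives that recompute single genes. Of 560 values, 0 reversed and 136 moved by more than their counting interval. These genes were chosen past 1.5-fold in cells that the alternatives largely reuse, so the kept directions are a description only. Genes called 1.5-fold higher and lower in both libraries, 35 and 23 of 2114, became 86 and 46 of 4577 at a minimum of 20 CPM. At 100 CPM they were 14 and 14 of 1063, and at 2-fold 5 and 8 of 2114. With cells of 4000 to 12000 UMIs, 42 of 2063 were higher and 37 lower. The list members called, 16 higher and 9 lower, became 9 and 5 at 50 CPM, and 8 were higher with at least 1 Tspan8 UMI. Over all genes the shares called were 1.88% and 1.01% at 20 CPM, and 1.66% and 1.09% at 50 CPM. The total of measured list members at each setting is not given, so these are counts only. The share of double-positive cells was 5.18% and 11.2% with at least 1 Tspan8 UMI, 1.15% and 4.96% with at least 2 UMIs of each gene, 2.79% and 6.17% with a basal sum of at least 1%, and 1.91% and 1.39% after thinning, in the libraries labelled WT and Fgd5-ko; with 4000 to 12000 UMIs it was 10.4% in the second. Without thinning, the cycling shares in the library labelled Fgd5-ko were 13.4% and 25.9%; in the next nearest double-negative cells, chosen after seeing the data, thinning gave 13.9% there and 2.29% for the library labelled WT. The alternatives without luminal progenitor marker UMIs and with basal keratins at least 5 times luminal ones were also chosen after seeing the data. No paired analysis was possible because each genotype had 1 library. Depth limits the library labelled WT most: its double-positive cells hold 1143118 UMIs.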
